A study of Mus musculus with 6 samples.

Results

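Bim, encoded by Bcl2l11 (gene ID 12125), and 9 further genes of the Bcl2 family were followed in polyA RNA from mouse embryonic stem cells (ESCs) of the KH2 line, on a C57BL/6 x 129 background. The 10 genes were chosen by name, all 10 had reads in every library, and they were 10 of the 18857 genes listed in at least 1 of the 6 deposited tables. The other members were the BH3-only genes Bmf (171543), Bid (12122) and Bad (12015), the anti-apoptotic genes Bcl2 (12043), Bcl2l1 (12048), Bcl2l2 (12050) and Mcl1 (17210), and the effector genes Bak1 (12018) and Bok (51800). The series held 6 libraries, 1 per group. In 4 of them the cells had the genotype labelled iErk1; Erk KO, which the labels do not spell out further, and the design text takes the removal of doxycycline (Dox) as the Erk knockout. One of these cultures was kept off Dox for 96 hours and received the Mek inhibitor PD0325901 in its final 48 hours. The other 3 received no inhibitor and were kept on Dox, off Dox for 48 hours, or off Dox for 96 hours. Wild-type KH2 cells were treated with PD0325901 for 48 hours or left untreated. The inhibitor's dose, the number of clones and the use of feeder cells are not given in the labels.

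Proteins of the Bcl2 family decide whether the outer membrane of mitochondria is opened during apoptosis. Bak and Bok belong to the effectors that open it. The anti-apoptotic members Bcl-2, Bcl-xL (Bcl2l1), Bcl-w (Bcl2l2) and Mcl-1 hold effectors such as Bak in check. The BH3-only proteins Bim, Bmf, Bid and Bad bind and neutralise the anti-apoptotic members or engage effectors directly. Bim is a known meeting point with the Mek and Erk kinases. In many cell types Erk phosphorylates the Bim protein and marks it for degradation, and FoxO transcription factors activate its gene. The libraries measure RNA, so protein turnover is outside what they show.

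The promoters of the only members called in any test below, Bcl2l11 and Bcl2l2, are shown because FoxO factors are known regulators of Bim. Sequences are from RefSeq on GRCm38.p6, read 5′ to 3′ on the plus strand. The Bcl2l11 window spans the 250 bases before its upstream start at chr2:128125788-128126037. The Bcl2l2 window is at chr14:54883175-54883374, the first 200 of the 250 bases before its start. Capitals mark a FOXO core (GTAAACA).
Bcl2l11: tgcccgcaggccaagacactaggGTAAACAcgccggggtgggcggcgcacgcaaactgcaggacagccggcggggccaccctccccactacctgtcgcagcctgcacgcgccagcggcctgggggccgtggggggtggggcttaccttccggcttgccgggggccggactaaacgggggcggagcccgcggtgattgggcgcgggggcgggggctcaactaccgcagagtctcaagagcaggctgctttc
Bcl2l2: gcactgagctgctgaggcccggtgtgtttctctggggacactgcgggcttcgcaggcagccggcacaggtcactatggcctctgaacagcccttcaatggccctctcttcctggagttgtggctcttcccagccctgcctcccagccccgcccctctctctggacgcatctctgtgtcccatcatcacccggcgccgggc

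Windows of 250 bases were found for all 10 members, 16 windows in all. The windows were searched on both strands for a FOXO core (GTAAACA), an ETS core (CCGGAAGT), an E-box (CACGTG), a CRE (TGACGTCA) and a GC box (GGGCGG). The FOXO core was found once, 227 bases before the upstream start of Bcl2l11. It occurs in 3.17% of the 32851 windows of that length. The ETS core, E-box and CRE, present in 2.88%, 6.02% and 1.55% of all windows, were in 0 of the 16. GC boxes, held by 32.7% of all windows, were in 8 of the 16, with 3 in the printed Bcl2l11 window, 7 in that of Bcl2 and 1 in that of Bcl2l2. A match to these letters is a description of the window and not of binding.

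The libraries held 9.05 to 9.95 M uniquely mapped reads (M, 1000000). With 1 library per group, ratios compare libraries, and intervals cover counting error only. Known Erk-dependent genes differed with the inhibitor and with Dox. Spry4, Etv4 and Dusp6 were at least 2-fold lower in each PD0325901 library than in its untreated partner, and after 48 hours without Dox than with Dox. Mapk3, which encodes Erk1, stood at 9.18 RPKM (the read count divided by gene length in kilobases and by library reads in units of 1000000) in Erk KO cells with PD0325901. It was at 14.8 RPKM with Dox, 6.86 RPKM after 48 and 6.75 RPKM after 96 hours without Dox, 52.8 RPKM in treated KH2 cells and 56.4 RPKM in untreated ones. All 8 ESC markers, among them Pou5f1 and Nanog, were above 1 RPKM in every library. At equal read depth the gene bodies were covered less completely in the 4 libraries of the engineered line, at a median of 72.7% to 74.5%, than in the 2 KH2 libraries, at 83.2% and 83.3%. These medians are over genes with 2 to 3 sequenced bases per base of length.

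Mcl1 was by far the most abundant member, and Bcl2 was barely expressed. Mcl1, which keeps Bak and Bim in check, lay between 145 and 209 RPKM and accounted for 81.9% to 91.6% of the summed RPKM of the 4 anti-apoptotic genes. Bcl2 had 4 to 25 reads in a library, or 0.0565 to 0.382 RPKM, and stayed below the minimum level of 1 RPKM used for ratios. The effector Bak1 came after Mcl1 in all 6 libraries, with 26.1 to 40.4 RPKM. Bid and Bcl2l1 followed at 12.9 to 20.3 and 15.0 to 21.6 RPKM, and their counting intervals overlapped in 4 libraries. The remaining 5 genes, Bcl2l11, Bcl2l2, Bok, Bmf and Bad, lay between 1.71 and 10.5 RPKM, and most neighbours in that order had overlapping intervals.

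**Figure D1:**
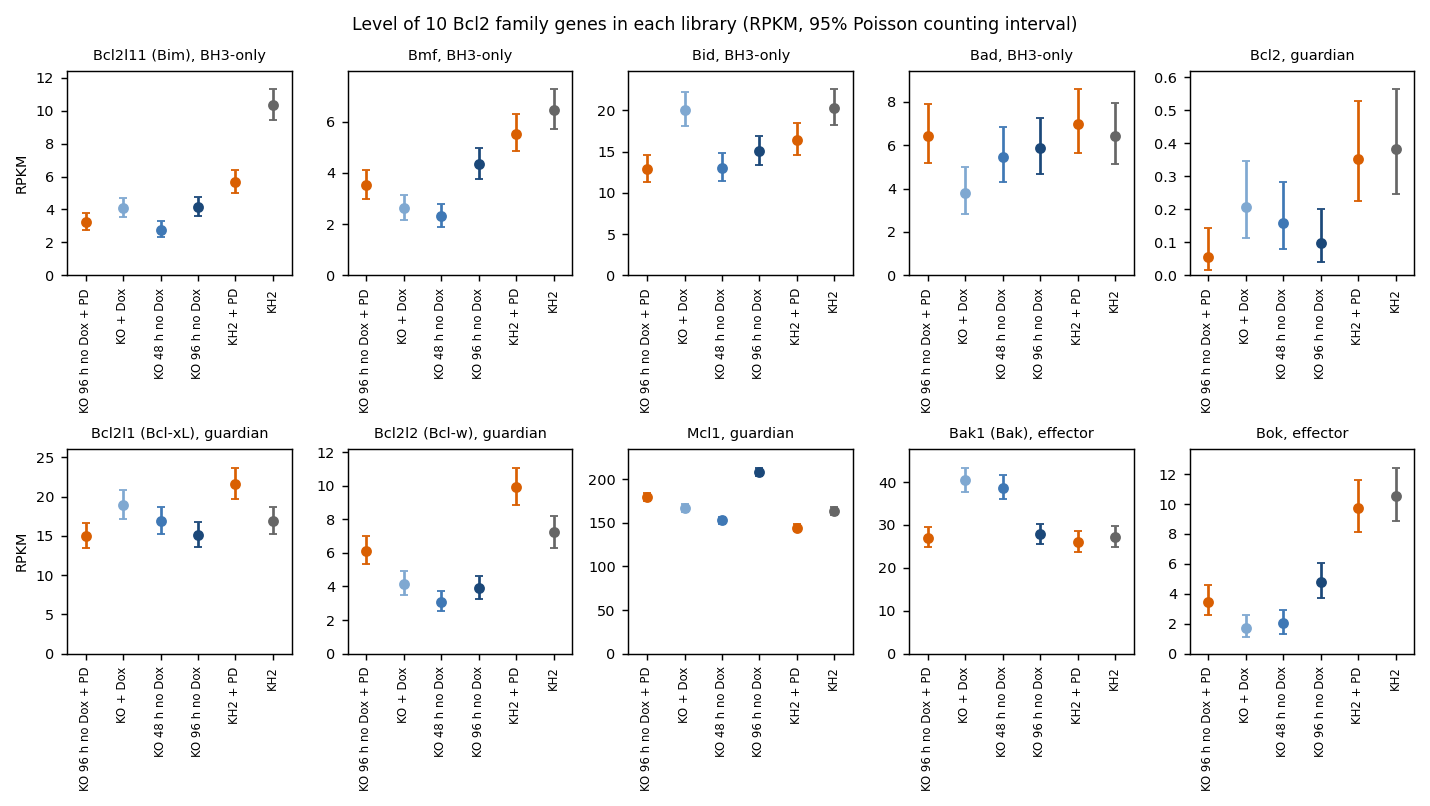
RPKM of each of the 10 genes (vertical axes, linear from 0) in the 6 libraries (horizontal axes). Points are single libraries and bars are 95% Poisson counting intervals, and Bcl2l11 is highest in untreated KH2 cells at 10.3 RPKM.

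Bcl2l11 transcripts fell with PD0325901 and Bcl2l2 transcripts rose, in a test of an effect common to the wild-type and Erk KO pairs. For Bcl2l11 the common log2 fold change was −0.63 with an SE of 0.154, at an adjusted p of 0.0174 (edgeR, quasi-likelihood F test, adjusted by Benjamini-Hochberg), and the gene was lower in 2 of 2 pairs. For Bcl2l2, which encodes the pro-survival protein Bcl-w, it was 0.55 with an SE of 0.152, at an adjusted p of 0.0354 by edgeR, and the gene was higher in 2 of 2 pairs. Of the 10 members 1 was called higher and 1 lower, where 6.05% of 14782 genes tested were called higher and 2.92% lower. The median log2 fold change was −0.22 over the members and −0.01 over all genes tested. Both calls were lost with DESeq2 (adjusted p 0.216 for Bcl2l11 and 0.433 for Bcl2l2), without cell state as a block (0.99997 for each) and with all 6 libraries in the fit (0.522 and 0.267). The fit has 1 residual degree of freedom, so its spread is mostly borrowed from other genes.

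In the libraries, Bcl2l11 was at 3.25 RPKM in Erk KO cells with PD0325901, at 4.07 with Dox, 2.78 at 48 hours and 4.17 RPKM at 96 hours without Dox, and at 5.68 RPKM in treated and 10.3 RPKM in untreated KH2 cells. The untreated KH2 library stood above all others, and the 4 libraries of the engineered line lay below both KH2 libraries. In KH2 cells Bcl2l11 had 259 reads with PD0325901 against 473 without, which was 1.82-fold lower (95% counting interval 1.56 to 2.12). A rule for pairs asked for a 1.5-fold or 2-fold size on the log2(RPKM + 0.5) scale, 1 RPKM in the higher library, 20 reads over both and an interval without 1. Bcl2l11 was the 1 member past the 1.5-fold rule as lower, as were 5.11% of 12787 genes, and 0 members passed it as higher, against 9.4% of genes. By the 2-fold rule 0 members passed, against 3.86% of genes higher and 1.22% lower. Of the 12787 genes, 2.37% had a lower log2 ratio than Bcl2l11. In Erk KO cells Bcl2l11 had 161 reads with the inhibitor against 209 without, 1.28-fold lower (1.04 to 1.58), and did not pass the rule, by which 1.81% of 11920 genes were lower. In that pair 0 members passed the 2-fold rule, against 1.34% of genes higher and 0.587% lower. A test of the difference in the PD0325901 effect over all 6 libraries gave a log2 value of 0.73 for Erk KO minus KH2 (SE 0.501, adjusted p 0.99985 by edgeR). It took the untreated 48 and 96 hour libraries without Dox as 1 state, so it is not the difference of these 2 pairs alone. Its 1 residual degree of freedom comes from those 2 libraries.

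Bcl2l2 was at 6.12 RPKM in treated and 3.90 RPKM in untreated Erk KO cells at 96 hours, at 4.16 RPKM with Dox and 3.08 RPKM at 48 hours without Dox, and at 9.92 RPKM in treated and 7.22 RPKM in untreated KH2 cells. Each treated library was above its untreated partner, and the wild-type library without inhibitor was above the treated Erk KO one. The fold was 1.57 in Erk KO cells (1.26 to 1.96), where it passed the 1.5-fold rule together with 3.7% of genes higher, and 1.37 in KH2 cells (1.16 to 1.64). After 48 hours without Dox it was instead 1.35-fold lower than with Dox (1.04 to 1.76), with 104 reads against 136. Among the 9 members with enough reads for a ratio, only Bcl2l2 had an interval above 1 with PD0325901 in both cell states.

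Markers of fibroblasts summed to more in both treated libraries, with 10 of 12 genes higher in the Erk KO pair, all but Lum and Pdgfra, and 12 of 12 in the KH2 pair. The 12 genes, of which 0 were without reads in any library, summed to 531 RPKM in treated and 107 RPKM in untreated Erk KO cells, and to 1471 RPKM in treated and 220 RPKM in untreated KH2 cells. Without Col1a1, the highest of them, the sums were 313 and 81.1 RPKM in treated and untreated Erk KO cells, and 593 and 124 RPKM in the KH2 pair. The 8 primitive endoderm markers summed to 11.3 and 10.99 RPKM in treated and untreated Erk KO cells, and to 27.8 and 42.1 RPKM in treated and untreated KH2 cells. In each of these pairs 5 of the 8 were lower with the inhibitor and 3 higher. Of 6 blood cell markers 5 were in the files, with a sum between 11.9 and 28.5 RPKM over the libraries and Ptprc at 0 in treated KH2 cells. The part of these markers in the changes of Bcl2l11 and Bcl2l2 was not tested. In bulk samples, fewer cells of a type and less RNA per cell cannot be told apart.

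**Figure D2:**
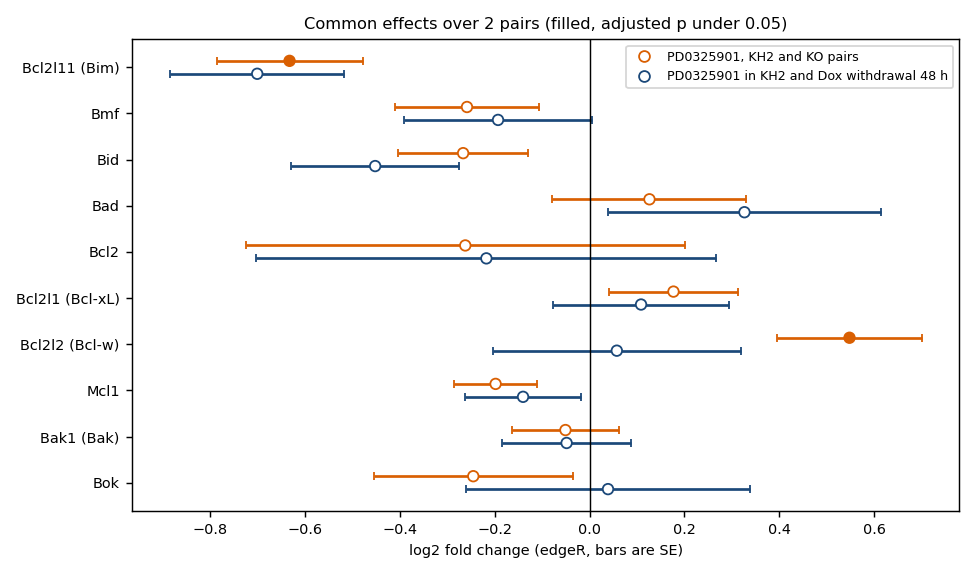
log2 fold change with SE (horizontal axis) of the 10 genes (vertical axis) in the fit of PD0325901 over the KH2 and Erk KO pairs (orange) and in the fit over PD0325901 in KH2 cells and 48 hours of Dox withdrawal (blue). Filled points, Bcl2l11 at −0.63 and Bcl2l2 at 0.55 in the first fit, have an adjusted p under 0.05.

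The remaining BH3-only genes had smaller differences with PD0325901. Bmf, whose protein senses detachment and cytoskeletal stress, was at 3.52 RPKM in treated against 4.34 RPKM in untreated Erk KO cells, and at 5.53 against 6.45 RPKM in KH2 cells. Bid, the BH3-only protein cleaved by caspase-8, was at 12.9 against 15.0 RPKM in treated and untreated Erk KO cells and at 16.4 against 20.3 RPKM in KH2 cells. Both genes were lower in each treated library, but neither was called (log2 fold change −0.26, SE 0.152, adjusted p 0.347 for Bmf and −0.27, SE 0.137, 0.270 for Bid by edgeR). Bad, a BH3-only protein controlled by phosphorylation, had 92 reads in each treated library and 85 in each untreated partner. Over all libraries Bad ran from 3.81 RPKM with Dox to 7.002 RPKM in treated KH2 cells.

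Among the anti-apoptotic genes, Mcl1 was slightly lower in each treated library. It was at 179 RPKM in treated and 209 RPKM in untreated Erk KO cells, 1.16-fold lower (1.12 to 1.20), and at 145 and 164 RPKM in treated and untreated KH2 cells, 1.13-fold lower (1.09 to 1.18). These intervals rest on 4574 to 7261 reads per library. The common effect, a log2 fold change of −0.20 (SE 0.0870), was not called (adjusted p 0.189 by edgeR). Bcl2l1 had 21.6 RPKM in treated and 16.9 RPKM in untreated KH2 cells, 1.28-fold higher (1.11 to 1.47), but 15.0 and 15.1 RPKM in treated and untreated Erk KO cells. For Bcl2l1 the test of the difference over all 6 libraries gave −0.50 on the log2 scale (SE 0.430, adjusted p 0.99985 by edgeR). As for Bcl2l11, this is not the difference of the 2 pairs alone. By that test 0 of 10 members were called, with 0 at an unadjusted p under 0.05, and 0 of 15103 genes in all, of which 129 had an unadjusted p under 0.05. No other tool was run on it, but in edgeR 2 genes were called without the filter on low counts and 1 with DESeq2 size factors, none of them a member. The effector Bak1 had 27.0 RPKM in treated and 27.8 RPKM in untreated Erk KO cells and 26.1 and 27.2 RPKM in the KH2 pair, and for Bak1 and Bok the intervals included 1 in both pairs.

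The third pair of the design set 48 hours without Dox against growth with Dox. Bid was the member with the clearest difference, at 13.0 RPKM without and 20.1 RPKM with Dox, 1.54-fold lower (1.31 to 1.82). It was the 1 member past the 1.5-fold rule in the lower direction, which 7.44% of 11386 genes passed, and 0 members passed it as higher, against 7.33% of genes. By the 2-fold rule 0 members passed, against 2.77% of genes higher and 2.13% lower. Bcl2l11 had 136 reads without against 193 with Dox, 1.46-fold lower (1.17 to 1.84), and Mcl1 was 1.09-fold lower (1.05 to 1.13). Bad was at 5.46 RPKM without and 3.81 RPKM with Dox, with a fold of 1.44 whose interval reached down to 0.997. For Bmf, Bok, Bcl2l1, Bak1 and Bcl2 the interval included 1. In this pair the fibroblast sum was 76.9 RPKM without and 79.2 RPKM with Dox, and the endoderm sum 30.1 and 40.4 RPKM. Their part was not tested.

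The inhibitor in KH2 cells and 48 hours of Dox withdrawal share no library, and an effect common to both was tested with cell line as a block. For Bcl2l11 the log2 fold change was −0.70 (SE 0.184, adjusted p 0.163 by edgeR) and for Bid −0.45 (SE 0.177, 0.307). These were the 2 of 10 members with an unadjusted p under 0.05, which 14.9% of all genes had, and 0 of 10 were called by edgeR or by DESeq2. Among all 14536 genes 0.399% were called higher and 0.289% lower. Bcl2l2, with log2 fold changes of opposite sign in the 2 pairs, stood at 0.06 (SE 0.261). This test and that of PD0325901 share the KH2 pair.

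Across the 3 pairs of the design, which have no library in common, Bcl2l11 and Mcl1 had intervals below 1 each time. That is 2 of the 9 members with enough reads, against 6.79% of 11065 genes, and 0 members had intervals above 1 each time, against 5.34% of genes. This count was added after the values had been seen. It asks for no size, so a gene with many reads can pass at a small fold. Of the genes with enough reads, 30.7%, 14.6% and 37.5% had a lower log2 ratio than Mcl1 in the KH2, Erk KO and Dox pairs. For Bcl2l11 these shares were 2.37%, 7.95% and 11.1%. The order of the Bcl2l11 differences was 1.82-fold lower with PD0325901 in KH2 cells, 1.46-fold lower at 48 hours without Dox and 1.28-fold lower with PD0325901 in Erk KO cells, and the intervals of neighbours in that order overlap.

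**Figure D3:**
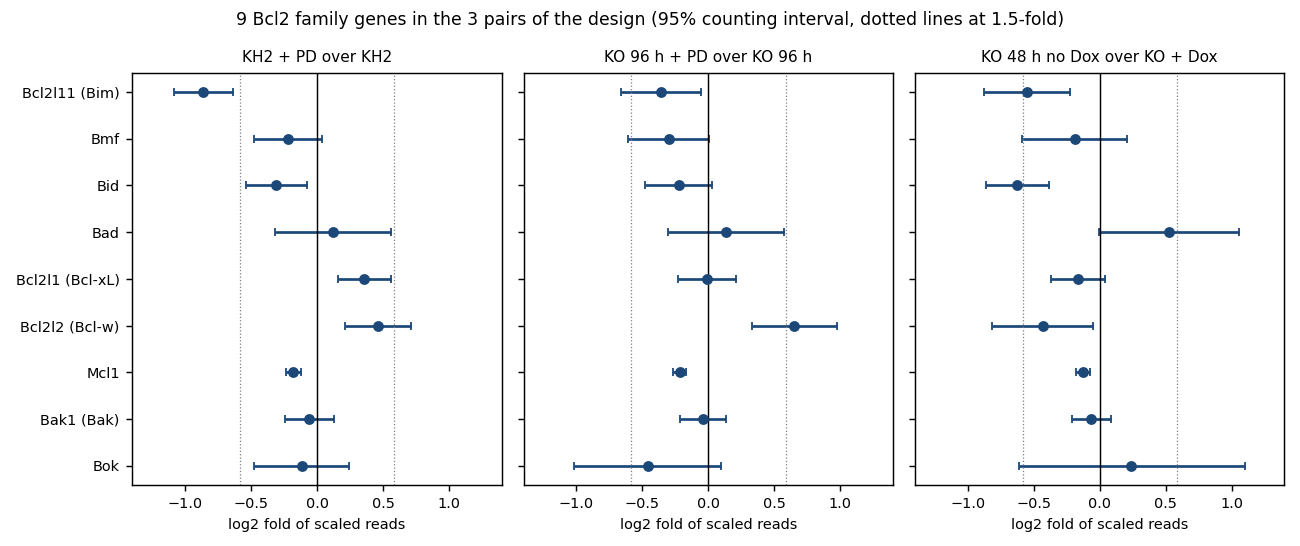
log2 fold of scaled reads with 95% counting interval (horizontal axes) for the 9 genes above the minimum level (vertical axis) in the 3 pairs of the design. Bcl2l11 and Mcl1 lie left of 0 with their whole interval in each panel, and dotted lines mark 1.5-fold.

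After 96 hours without Dox the picture for several members differed from that at 48 hours. Bcl2l11 had 4.17 RPKM at 96 hours and 4.07 RPKM with Dox, with a fold of 1.02 (0.838 to 1.25) by library totals and 0.947 with TMM scaling (trimmed mean of M-values), so its direction depends on the scaling. Bok, an effector related to Bak, was at 4.77 RPKM against 1.71 RPKM with Dox, 2.79-fold higher (1.72 to 4.70). It was the 1 member past a 2-fold rule in the higher direction, which 7.62% of 11804 genes passed, and 0 members passed it as lower, against 2.07% of genes. Bmf also passed the 1.5-fold rule as higher, at 4.34 against 2.63 RPKM, as did 16.6% of genes, while 0 members passed that rule as lower, against 6.68% of genes. Mcl1 was at 209 RPKM against 167 RPKM with Dox, 1.25-fold higher (1.21 to 1.29), whereas at 48 hours it was lower. Bak1 was at 27.8 against 40.4 RPKM and 1.45-fold lower (1.30 to 1.62), Bcl2l1 was 1.25-fold lower (1.08 to 1.44) and Bid 1.34-fold lower (1.14 to 1.57). With TMM scaling Bmf did not pass the 1.5-fold rule and Bak1 passed it as lower. Bad was 1.55-fold higher (1.08 to 2.23) without passing the rule, and Bcl2l2 had an interval that included 1. The 48 and 96 hour comparisons share the library with Dox. Spry4, Etv4 and Dusp6 were at 6.41, 4.26 and 13.7 RPKM at 96 hours. At 48 hours they were at 1.54, 1.19 and 6.45 RPKM, and with Dox at 23.9, 8.14 and 53.6 RPKM. The endoderm sum was 10.99 RPKM at 96 hours and 40.4 RPKM with Dox, and the fibroblast sum 107 and 79.2 RPKM. Their part in the differences of the members was not tested.

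The Dox-maintained line was lower than KH2 cells by at least 1.5-fold in 5 of the 9 members with enough reads. Bok was at 1.71 RPKM in the Dox-maintained line against 10.5 RPKM in KH2 cells, 6.17-fold lower (3.95 to 10.1), Bcl2l11 at 4.07 against 10.3 RPKM, 2.54-fold lower (2.14 to 3.02), and Bmf at 2.63 against 6.45 RPKM, 2.46-fold lower (1.97 to 3.08). These 3 members passed the 2-fold rule, but so did 21.4% of 12421 genes, and the median log2 ratio of all genes was −0.37. Bcl2l2 and Bad also passed the 1.5-fold rule, which 38.7% of genes passed as lower. In the higher direction 0 members passed either rule, against 2.76% of genes for 2-fold and 8.61% for 1.5-fold. Scaling by TMM, which takes the typical gene as unchanged, moved that median to 0.02. Of the 3 genes only Bok, 4.65-fold lower, then passed the 2-fold rule, as did 11.6% of all genes in the lower direction. Bak1 was higher in the Dox-maintained line by 1.49-fold with library totals (1.33 to 1.67) and by 1.97-fold with TMM. Bcl2l1 had a fold of 1.12 with library totals and 1.48 with TMM, and Mcl1 one of 1.02 and 1.35. Bid had a fold of 0.988 with library totals and 1.31 with TMM, so its direction depends on the scaling. Fibroblast markers summed to 79.2 RPKM in the Dox-maintained line and 220 RPKM in KH2 cells, with 10 of 12 genes lower. ESC markers summed to 2521 and 3948 RPKM, but 4 of the 8 were higher in the Dox-maintained line and 4 lower. Dppa5a alone was at 536 RPKM in the Dox-maintained line and 1698 RPKM in KH2 cells. The part of these markers in the differences of the members, and that of the less complete coverage, was not tested. Cell line, culture with Dox and any difference in library preparation cannot be told apart here, since the labels do not say whether both lines were prepared together.

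**Figure D4:**
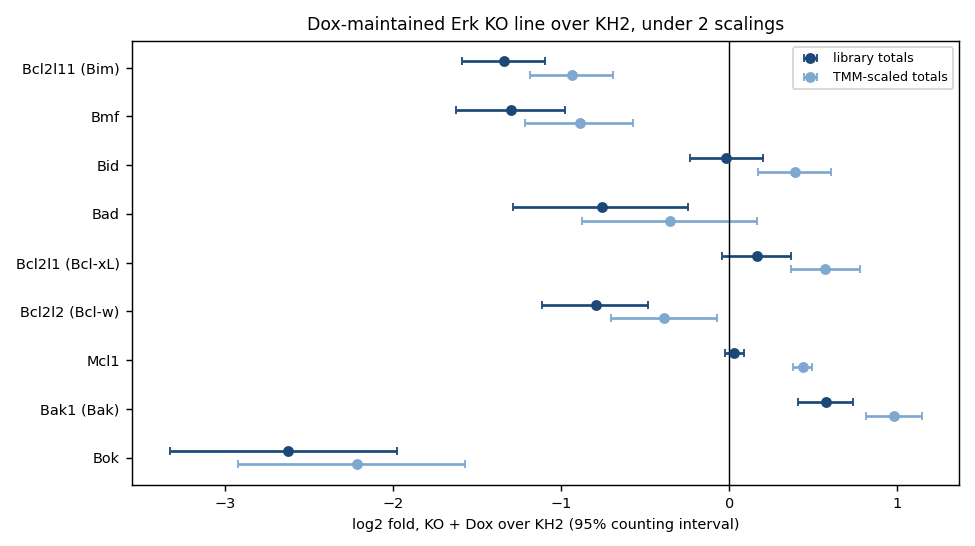
log2 fold of the Dox-maintained Erk KO line over KH2 cells (horizontal axis) with 95% counting intervals for 9 genes (vertical axis), scaled by library totals (dark) or TMM (light). TMM moves every gene to the right, and Bok stays the lowest at 4.65-fold lower.

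In 5 lists of neighbouring parts of the apoptotic machinery, with each gene counted once, 3 of 62 genes tested were called higher with PD0325901 and 1 lower, against 6.05% and 2.92% of all genes. At an unadjusted p under 0.05 were 11 of the 62, against 22.5% of all genes. Of 13 further Bcl2 family genes in the files, 10 had enough reads for the test and edgeR called 0 of them, with 2 at an unadjusted p under 0.05. The effector Bax had 95.7 and 95.3 RPKM in treated and untreated Erk KO cells and 156 and 149 RPKM in the KH2 pair, and the BH3-only gene Bbc3 (Puma) had a log2 fold change of −0.21 that was not called. Of 17 apoptosome, caspase and inhibitor genes 0 were called and 1 had an unadjusted p under 0.05, with a median of −0.05. Of 20 regulators of Bim, Bmf and Mcl-1, Gsk3b (0.42, adjusted p 0.0157 by edgeR), a kinase that marks Mcl-1 for degradation, rose and the FoxO gene Foxo4 (−0.47, 0.0304) fell, while Foxo3 had a log2 fold change of 0.44 and was not called (0.0561). The death receptor list had 2 of 8 genes called, both higher, where 6.05% of all genes were. They were Fas, at 2.18-fold higher (adjusted p 0.0180 by edgeR), and Tnfrsf1a, at 1.99-fold higher (0.00406). Of the 11 genes of a p53 list, which includes Trp53 itself and Mdm2, Fas alone was called. DESeq2 called none of these 4 genes, nor did the fit with all 6 libraries or that without the block, which called 0 of all genes. Fas had 45 reads in treated against 24 in untreated Erk KO cells and 84 against 35 in KH2 cells, and the fibroblast sum was higher in the same libraries; its part in this was not tested.

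For the effect common to PD0325901 in KH2 cells and Dox withdrawal, 0 genes of these 5 lists were called by edgeR. Counts at an unadjusted p under 0.05 were 2 further Bcl2 family genes, 1 apoptosome gene, 5 regulators, and 0 in the death receptor and p53 lists. With each gene counted once these were 8 of 62, against 14.9% of all genes. At 48 hours without Dox, the further Bcl2 family genes Bcl2l14 (75 reads against 18 with Dox) and Bnip3 (67.0 against 31.0 RPKM), a mitophagy receptor, passed the 2-fold rule as higher, 2 of the 8 with enough reads, against 2.77% of all genes. At 96 hours Bnip3 reached 244 RPKM, 7.86-fold above the level with Dox. The stress-induced factor Ddit3, a known activator of Bim, had 41 reads at 48 hours without Dox and 130 with Dox, 3.27-fold lower. Over the 5 lists it was the 1 of 60 genes past the 2-fold rule as lower at 48 hours, against 2.13% of all genes. In the higher direction 2 of 60 passed, against 2.77%. At 96 hours without Dox the further Bcl2 family genes past the 2-fold rule were Bcl2l14 (105 reads against 18 with Dox), Bcl2l15 (33 reads against 1), Bnip3 and its relative Bnip3l (72.4 against 34.3 RPKM), all higher. These were 4 of 9 with enough reads, against 7.62% of all genes. Tradd, an adaptor of the TNF receptor, and the p53 target Trp53inp1 were higher as well, by 2.84-fold and 2.17-fold. Over the 5 lists 6 of 61 genes passed as higher, against 7.62% of all genes, and 0 as lower, against 2.07%. With TMM scaling 4 of 61 passed as higher, without Bnip3l and Trp53inp1, against 6.45% of all genes. With PD0325901 in Erk KO cells at 96 hours, Bcl2l15 had 11 reads against 33 without it. It was the only gene of the 5 lists past the 2-fold rule, 1 of 61 as lower, against 0.587% of all genes, and 0 were higher, against 1.34%. In KH2 cells Fas and Tnfrsf1a passed, 2 of 60 as higher, against 3.86% of all genes, and 0 were lower, against 1.22%.

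The 2-fold rule was also applied to the 5 lists in the Dox-maintained line against KH2 cells. By library totals 15 of 61 genes passed it as lower, against 21.4% of all genes, and 0 as higher, against 2.76%. With TMM scaling 6 of 61 passed as lower, against 11.6% of all genes, namely Bnip3, Bik, Bbc3, Endog, Casp6 and Tradd. In the higher direction 4 of 61 then passed, against 8.21% of all genes. The folds that follow are by library totals. Among further Bcl2 family genes, those lower were Bnip3 (31.0 RPKM in the Dox-maintained line against 279 RPKM in KH2 cells), the BH3-only genes Bik (3 reads against 25) and Bbc3 (5.27 against 25.6 RPKM), and Bnip3l (34.3 against 80.6 RPKM). Among apoptosome and caspase genes they were the mitochondrial nuclease gene Endog, Casp6 and Apaf1, the scaffold of the apoptosome, at 4.98-fold, 3.43-fold and 2.23-fold lower. The regulators of Bim were Foxo3 (2.46-fold lower), Ddit3 (2.08-fold) and E2f1 (2.06-fold). The death receptor genes were Tradd (3.29-fold), Casp8 (2.55-fold) and Tnfrsf10b (2.07-fold), and the p53 list added Perp (2.53-fold) and Trp53inp1 (2.27-fold).

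By summed RPKM, the 4 BH3-only genes came to 26.1 in treated and 29.4 in untreated Erk KO cells at 96 hours. They came to 23.6 at 48 hours without Dox and 30.6 with Dox, and to 34.6 in treated and 43.5 in untreated KH2 cells. Bcl2l11 made up 12.5% and 14.2% of that sum in treated and untreated Erk KO cells and 16.4% and 23.7% in treated and untreated KH2 cells. Over the 6 libraries, the gene with the profile most like that of Bcl2l11 was Pla2g6, whose centred log2 level deviated from it by at most 0.177, followed by Psmb10 (0.184) and Rfc4 (0.188). For Bmf these were Tmem41a, Ptk2b and Cyb561, with largest deviations of 0.0940, 0.128 and 0.147. For Bcl2 they were Xpo6, Tomm40 and Klhdc3, but at its level the added constant of 0.5 RPKM flattens the profile. These likenesses are over 6 single libraries.

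Some counts may hold reads of neighbours, since the files do not separate strands. In the RefSeq annotation Bcl2l11 overlaps Acoxl, which had 6 to 38 reads, and Bcl2l1 overlaps Cox4i2 with 4 to 52 reads. Bak1 overlaps Ggnbp1 with 11 to 111 reads, and Bad overlaps Gpr137 with 73 to 146 reads, about as many as Bad itself. No overlapping gene was annotated for Bcl2l2, Mcl1, Bmf or Bok. Reads covered less of Bcl2l11 where its count was lower, with 66.5% of its length covered in treated and 74.9% in untreated Erk KO cells, and 85.6% and 98.2% in the treated and untreated KH2 libraries.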

How the data were processed

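PolyA RNA from 6 cultures gave libraries read from 1 end over 50 bases, per the protocol in the labels. The authors deposited, per the file headers, a count of uniquely mapped reads per gene, the RPKM value made from it with the library total, and the percent of gene length covered. The submitters' processing notes name mm9 as the build. The aligner and annotation are not given in the sources used here. Tables were joined by NCBI gene ID (18857 genes, absent rows as 0 reads), with symbols from RefSeq. Totals were 9048669 to 9954733 reads.

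The members and lists were chosen with earlier results of these data known. All 10 members are named, with list genes past the 2-fold rule or a test (at most 4 per list and direction) and the 3 nearest profiles of Bcl2l11, Bmf and Bcl2. For 5 library pairs, log2 ratios used RPKM plus 0.5, folds used reads scaled to totals, and intervals were exact 95% Clopper-Pearson, covering counting error only. Passing the 2-fold or 1.5-fold rule required that size on the log2 ratio, 1 RPKM in the higher library, 20 reads over the pair and an interval without 1. No p-value was computed for a pair.

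Tests over 4 or 6 libraries used edgeR 4.0.16 (quasi-likelihood, TMM, at least 20 reads, Benjamini-Hochberg at 0.05 over all genes), with DESeq2 1.42.0 as an alternative. In the test of the difference, both uninhibited libraries without Dox (48 and 96 hours) were treated as 1 state, and the library with Dox had a state of its own. Each of the 3 tests had 1 residual degree of freedom. SEs come from the log2 fold change and F value.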

Additional observations from a re-analysis of the deposited data

How the results depend on the processing

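The 2 calls with PD0325901, 1 member higher and 1 lower, were also made with DESeq2 size factors in edgeR, with library totals alone and without a filter on low counts, where the adjusted p of Bcl2l11 was 0.000437 to 0.0136 and that of Bcl2l2 0.00787 to 0.0313. With DESeq2, without the cell state block and with all 6 libraries, 0 members were called higher and 0 lower, the directions held, and over all alternatives the adjusted p was 0.000437 to 0.99997 for Bcl2l11 and 0.00787 to 0.99997 for Bcl2l2. In the test over PD0325901 in KH2 cells and Dox withdrawal, 0 members were called under any of 6 alternatives, and the adjusted p of Bcl2l11 was 0.0745 to 0.99984, with 0.0943 when all 3 pairs were fitted. Over all genes the calls in that test were 58 higher and 42 lower, but 132 and 87 with DESeq2, 340 and 210 without the filter, 0 and 8 with DESeq2 size factors, 36 and 30 with library totals, 61 and 84 with 3 pairs and 0 and 0 without the block. In the test of the difference 0 higher and 0 lower calls became 0 and 2 without the filter and 0 and 1 with DESeq2 size factors. For PD0325901 the 894 higher and 431 lower calls became 344 and 106 with DESeq2, 1191 and 739 with DESeq2 size factors, 1292 and 705 with library totals, 103 and 15 with all 6 libraries, and 0 and 0 without the block, where 270 genes had an unadjusted p under 0.05.

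In the library pairs a pseudocount of 1 left 0 members higher by the 1.5-fold rule with PD0325901 in Erk KO cells and 1 at 96 hours against Dox. With TMM-scaled totals the 96 hour pair had 1 member higher and 1 lower by that rule. The Dox-maintained line against KH2 then had 1 member lower by the 2-fold rule, against 11.6% of all genes. By the 1.5-fold rule it had 1 member higher and 3 lower. Shares of all genes by the 1.5-fold rule with a pseudocount of 1 or with TMM are not given here. Those member counts therefore have no background beside them. The counts of intervals in 3 pairs were the same with TMM. The TMM counts over the 5 other lists and the fibroblast sums without Col1a1 were chosen after seeing the data. Pairing was by cell state or line, as a block in the tests; with 1 library per group and no replicate numbers in the labels, there were no numbered replicates to pair or leave out. At these depths Bcl2, with at most 25 reads, allows no comparison.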
